A study of Mus musculus with 8 samples.

Results

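The 10 genes described here, Fos, Fosb, Jun, Junb, Jund, Egr1, Atf3, Ier2, Ier3 and Myc, are immediate early genes. They were taken by name, as every probe set annotated to them by a current or older symbol, and all 10 are among the 13675 genes named on the arrays. Total RNA of pancreatic islets was measured in wild type mice and in knockout mice that lack 1 gene, with 2 replicates of each genotype that the submitters call biological. Every replicate was hybridised to both MG-U74A and MG-U74B, a pair of Affymetrix oligonucleotide arrays with different mouse probe sets. Strain, age, sex, the allele and whether animals were pooled are not given in the sources used here. The 10 genes have 16 probe sets, of which MG-U74A holds 15 and MG-U74B holds 1. The p-values rest only on the spread between these 2 replicates a genotype, of each probe set and, through limma, of the other tested probe sets.

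Immediate early genes are transcribed within minutes of a stimulus, without new protein synthesis, from factors already present in the cell. Kinase cascades that act on serum response factor and its partners, and on the cyclic AMP response element binding protein, start their transcription, and the short-lived messages then decay. Fos and Jun proteins pair as the transcription factor AP-1, Egr1 is a zinc finger factor, and Myc drives growth and ribosome production. In beta cells glucose and calcium entry are known to raise Fos and Egr1.

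Of the 12 probe sets that were bright enough to test, which cover all 10 genes, 4 fell and 3 rose in knockout islets on MG-U74A. Egr1, Jun, Fos and Jund fell, by 1.86, 1.58, 1.43 and 1.33 times in mean intensity. Ier3 rose 4.39-fold, Myc 1.76-fold and Ier2 1.13-fold. Fosb, Junb and Atf3 did not pass the threshold, an adjusted p of 0.05 in a limma fit over all 7516 tested probe sets of the array type. The fit was made on log2 of the intensity plus a constant of 25, so that log2 changes are somewhat smaller than the ratio of means. Over all tested probe sets of MG-U74A 23.9% rose and 29.0% fell, against 25% and 33.3% of the members, so the shares of the members lie near the background. The median log2 change of the 12 was -0.06, beside -0.09 over all tested. Only 1 of the 12, Ier3, changed at least 2-fold, where 23.2% of all tested probe sets did. Without wild type replicate 2, 1 member rose and 2 fell, and with no filter on dim probe sets 1 rose and 3 fell. The genotypes did not overlap for 10 of the 12 members (83.3%), against 79.1% of all tested.

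**Figure D1:**
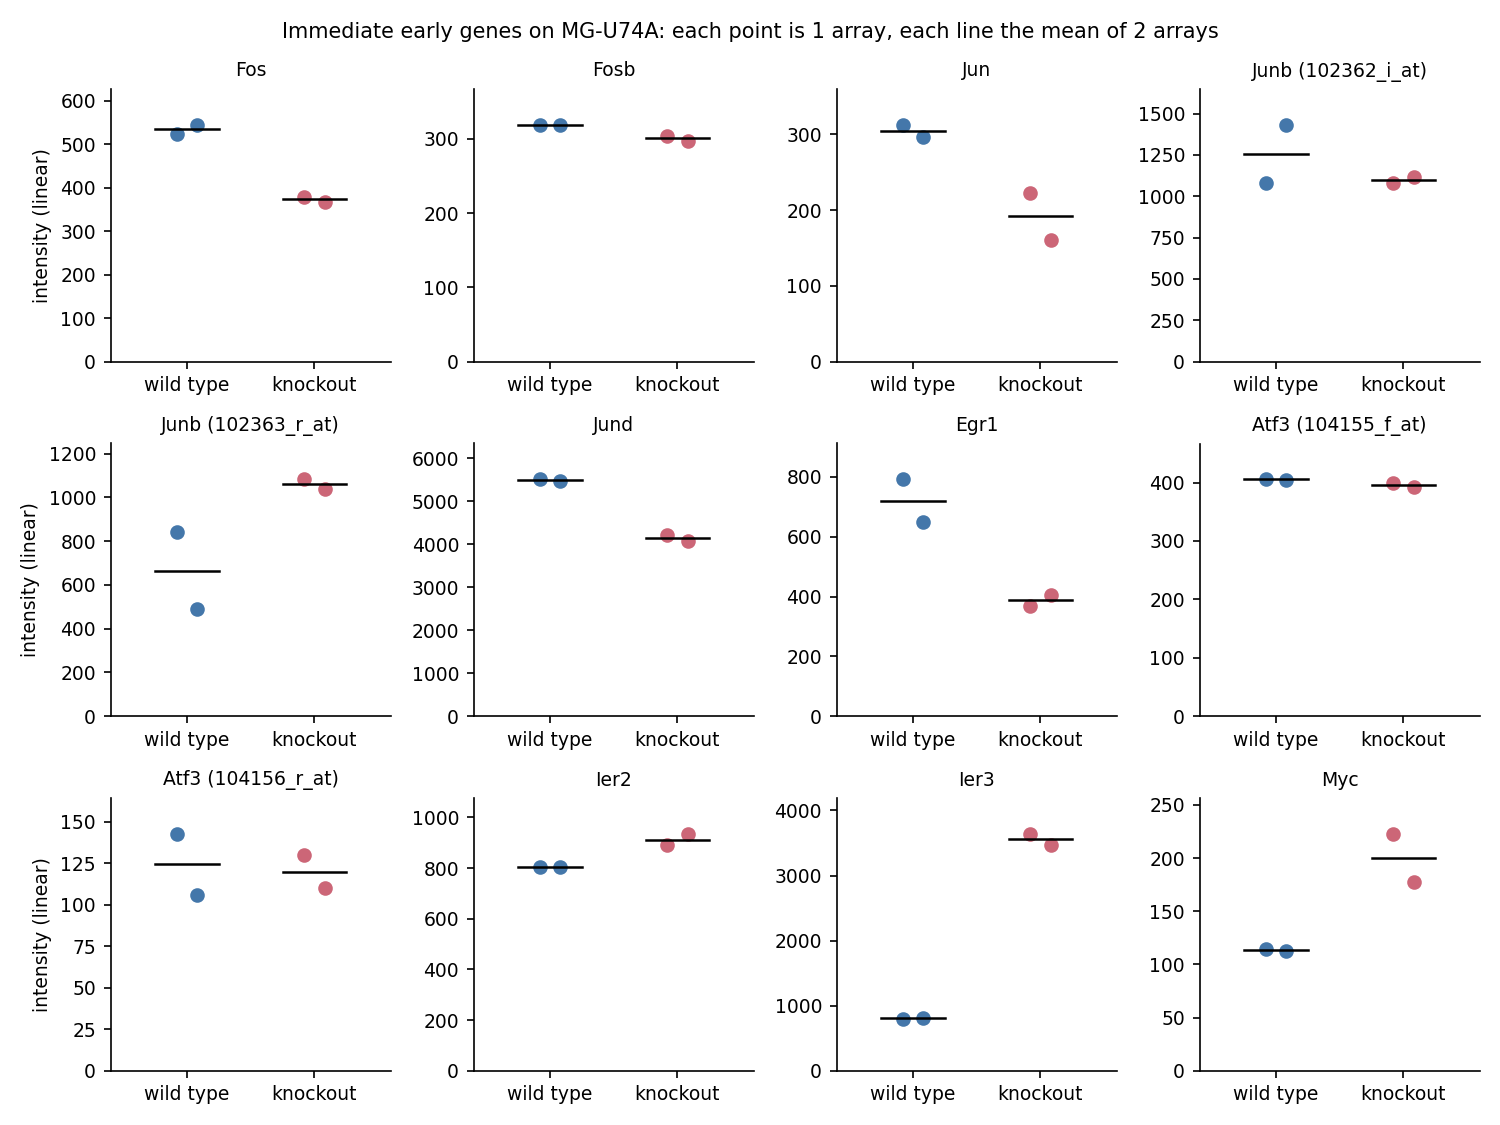
Intensity (linear scale, from 0) of the 12 tested member probe sets on MG-U74A, with 1 point for each array and a line at the mean of each genotype. The knockout arrays of Ier3 lie at 3645 and 3464, above the wild type arrays at 801 and 817, while for Egr1, Fos, Jun and Jund both knockout arrays lie below both wild type arrays.

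Wild type and knockout arrays also differed in control measures. On MG-U74A the Gapdh control probe sets gave a ratio of 3' over 5' signal of 3.15 and 3.22 in wild type and 0.949 and 0.937 in knockout. Those of actin gave 1.47 and 1.45 against 1.16 and 1.12. A higher ratio goes with less complete RNA. Short-lived messages such as these were measured in RNA that differed in this way, and its part in the results was not tested. Of the defining islet transcripts Ins2, Iapp and Gcg were bright in both genotypes, with means of 28090, 14788 and 9453 in knockout. Pdx1, a beta cell transcription factor, and Slc2a2, a glucose transporter, had means of 209 and 683 in wild type but read 23.1 and -6.10, and 31.5 and 13.2, in knockout, below the filter of 62.5. The 10 tested endocrine markers all fell, and their summed intensity was 125434 to 126078 in wild type and 79321 to 87622 in knockout. All 8 tested acinar markers fell, with sums of 39985 to 40305 and 5081 to 5639. Pdx1, Slc2a2 and the acinar marker Clps passed the filter only through the wild type arrays, so that they could be tested only as falls.

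Markers of other cells rose on the same arrays. Of 9 tested lymphocyte markers 7 rose. The summed intensity of all 12 on the array, with values below 0 taken as 0, was 5386 to 5450 in wild type and 22378 to 22996 in knockout. All 12 tested markers of macrophages and dendritic cells rose (sums of all 14 on the array 5606 to 5866 against 20057 to 20174). Of 12 markers of fibroblasts and stellate cells 8 rose and 2 fell (6953 to 7111 against 19316 to 20470), and of 9 endothelial markers 6 rose and 1 fell (2392 to 2433 against 3087 to 3106). Of 6 duct markers 1 rose and 4 fell (8544 to 9184 against 5036 to 5143). Each marker was called by its brightest tested probe set, and some probe sets of a marker disagree. Col1a2 fell at -0.34, while its other probe set rose by 3.27. Ms4a1 and Zap70 did not pass but have other probe sets at 1.51 and 3.16, and C1qb rose but has another at -0.12. Cd79a, Cd3e, Cd2, Fcer1g, Acta2 and Vwf were at or below 0 on both wild type arrays, and in knockout only Cd3e was among these markers. Immediate early genes are expressed by many cell types, and in whole islets a change in the mixture of cells and a change of RNA per cell cannot be told apart. The part of the marker shifts in the members' changes was not tested.

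**Figure D2:**
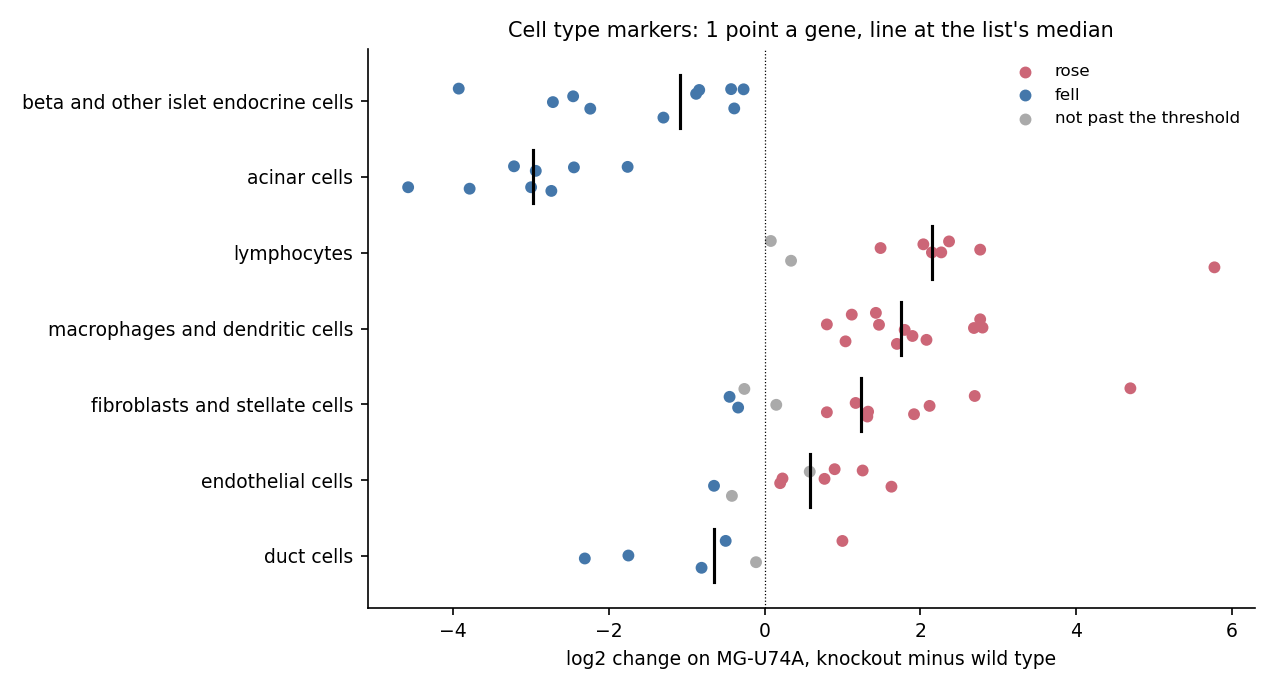
Log2 change (knockout minus wild type) on MG-U74A of the tested markers of 7 cell classes, with 1 point a gene and a line at each class median. Endocrine and acinar markers lie below 0, with medians of -1.09 and -2.97, and lymphocyte and macrophage markers lie above it, with medians of 2.15 and 1.75. Some markers passed the filter only through 1 genotype.

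Fos, which pairs with Jun proteins to make AP-1, is measured by 1 informative probe set. It read 523 and 545 in wild type and 379 and 368 in knockout, so that both knockout arrays lay below both wild type arrays. The means were 534 ± 15.6 and 373 ± 7.70 (SD, n = 2), a log2 change of -0.49 ± 0.06 (SE, adjusted p = 0.00525). Without wild type replicate 2 the change was -0.46 with an adjusted p of 0.0590. A second probe set of Fos was near 0 in both genotypes, at 24.9 and 7.90 in wild type and 34.3 and 23.6 in knockout, and was too dim to test. The promoter of Fos is printed with that of its partner Jun, and further on that of Ier3, the member that changed most. Printed are the 250 bases before the annotated start, from RefSeq on the build GRCm38.p6, at chr12:85473640-85473889 on the plus strand for Fos and chr4:95052223-95052472 on the minus strand for Jun. Capitals mark TGACG, the core of the cyclic AMP response element, which is in Fos and not in Jun.
Fos: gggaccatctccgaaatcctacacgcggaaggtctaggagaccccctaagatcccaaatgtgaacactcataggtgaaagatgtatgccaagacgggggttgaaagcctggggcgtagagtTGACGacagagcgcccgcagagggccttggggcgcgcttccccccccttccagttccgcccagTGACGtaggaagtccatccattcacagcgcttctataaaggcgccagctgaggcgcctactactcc
Jun: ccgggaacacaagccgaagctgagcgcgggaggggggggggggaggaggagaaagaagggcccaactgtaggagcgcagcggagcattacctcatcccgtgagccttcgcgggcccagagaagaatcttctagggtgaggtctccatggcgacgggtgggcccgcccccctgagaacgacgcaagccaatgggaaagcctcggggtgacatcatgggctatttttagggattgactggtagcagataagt
The windows of 7 members were searched on both strands for TGACG, for the full element TGACGTCA that contains it, for the AP-1 site TGANTCA, for the Egr site GCGNGGGCG and for the CArG box, the site of serum response factor. TGACG was in 4 of the 7 windows, those of Fos, with matches that begin 129 and 66 bases before the start, Fosb, Junb and Atf3, where 17.8% of 32851 windows of that length hold it. GCGNGGGCG was in that of Fosb alone, against 4.70% of all windows. TGACGTCA (1.55% of all windows), TGANTCA (6.75%) and the CArG box (1.47%) were in none of the 7, which says only that these letters are not within those 250 bases. A match is a description of the letters and not of binding.

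Jun, the main partner of Fos, fell on its single probe set. It read 313 and 296 in wild type and 223 and 161 in knockout, with no overlap. The means were 304 ± 11.7 and 192 ± 44.2, a log2 change of -0.62 ± 0.17 (adjusted p = 0.0429). This call was the least firm of the 4 falls. The adjusted p was 0.172 without wild type replicate 1, 0.141 without wild type replicate 2, 0.124 with no filter on dim probe sets, 0.0526 after quantile normalization and 0.0580 with no variance trend, with changes between -0.82 and -0.41 over all 11 alternatives.

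Jund, a Jun protein that is made in resting cells as well, read 5514 and 5467 in wild type and 4218 and 4068 in knockout on MG-U74A. The knockout arrays lay below the wild type arrays by more than the spread of either pair. The log2 change was -0.40 ± 0.03 (adjusted p = 0.00159, 95% interval -0.50 to -0.31), and it passed the threshold under all 11 alternatives, with changes of -0.60 to -0.38. The probe set of Jund on MG-U74B read 113 and -134 in wild type and -157 and -101 in knockout and was too dim to test. It is the only member probe set on that array type.

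Junb, a Jun protein that can oppose Jun, has a pair of probe sets that did not move together. The one whose name ends in i, for a reduced set of probes, read 1078 and 1434 in wild type and 1078 and 1116 in knockout, where the genotypes overlap. Its log2 change was -0.18 ± 0.15 (adjusted p = 0.363, 95% interval -0.58 to 0.23). The other, whose name ends in r, for probes that break some of the design rules, read 841 and 490 in wild type and 1084 and 1039 in knockout, a change of 0.70 ± 0.27 (adjusted p = 0.0920, interval -0.03 to 1.43). The wild type arrays differed from each other in opposite directions on the pair. Without wild type replicate 1 both passed, at -0.38 (adjusted p = 0.0418) and 1.08 (adjusted p = 0.00817), that is in opposite directions, so no direction can be given for Junb.

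Fosb, a close relative of Fos, read 319 on both wild type arrays and 304 and 297 on the knockout arrays. The arrays do not overlap, but the change of -0.08 ± 0.07 did not pass (adjusted p = 0.413), with an interval of -0.28 to 0.12. Atf3, a stress-induced factor that binds cyclic AMP response elements, has 3 probe sets. The brightest, whose name ends in f because its probes are shared within a sequence family, read 406, 405, 400 and 392 in wild type replicates 1 and 2 and knockout replicates 1 and 2, a change of -0.03 ± 0.06 (adjusted p = 0.710, interval -0.20 to 0.14). A second read 143 and 106 against 130 and 110, with overlap and a change of -0.04 ± 0.19 (adjusted p = 0.882, interval -0.57 to 0.50). The third was far below 0 on every array, between -433 and -392, and was not tested.

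Egr1, a zinc finger factor induced through serum response factor, fell most of the members, except with knockout replicate 1 left out, when Jun fell by 0.82 and Egr1 by 0.78 on the log2 scale. It read 793 and 648 in wild type and 370 and 406 in knockout, and the gap between the genotypes was wider than the gap between the wild type arrays. The means were 720 ± 103 and 388 ± 25.7, a log2 change of -0.85 ± 0.12 (adjusted p = 0.00679, 95% interval -1.18 to -0.52). The call held under all 11 alternatives, with changes of -0.99 to -0.71 and adjusted p-values of 0.00610 to 0.0456. It is not an extreme change on this array type, since 15.6% of the tested probe sets fell by more. A second probe set of Egr1 was near 0 on all arrays, at 17.2 and 9.20 in wild type and 10 and 16.7 in knockout, and was not tested.

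Ier3, a regulator of cell survival that responds to growth factors, cytokines and stress, changed most. It read 801 and 817 in wild type and 3645 and 3464 in knockout. Each knockout array was several times brighter than either wild type array. The means were 809 ± 11 and 3554 ± 128, a log2 change of 2.10 ± 0.04 (adjusted p = 1.01e-04, 95% interval 1.98 to 2.22). The rise passed under all 11 alternatives, with changes of 2.05 to 2.14, and 3.54% of the tested probe sets rose by more. Its window lies at chr17:35821463-35821712 on the plus strand (GRCm38.p6) and holds none of the 5 motifs, so it has no capitals.
Ier3: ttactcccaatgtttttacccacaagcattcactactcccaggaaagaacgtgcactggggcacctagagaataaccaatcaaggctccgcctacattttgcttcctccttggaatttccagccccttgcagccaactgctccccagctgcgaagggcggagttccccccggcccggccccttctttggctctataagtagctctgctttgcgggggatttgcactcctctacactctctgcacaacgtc
Ier2, a nuclear protein induced by growth factors, read 804 and 805 in wild type and 889 and 936 in knockout. The groups do not overlap, but the rise was small, at 0.18 ± 0.05 (adjusted p = 0.0434), and the call ended in 5 alternatives. Its adjusted p was 0.212 without either wild type replicate in turn, 0.118 with no variance trend and 0.0533 with no filter. Ier2 and Ier3 share a name and their early induction, and the intervals of their changes, 0.04 to 0.31 and 1.98 to 2.22, do not overlap.

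Myc, a factor that promotes growth, lay not far above the filter of 62.5 in wild type, and 70% of the tested probe sets were brighter over the 4 arrays. It read 114 and 113 in wild type and 223 and 177 in knockout. Both knockout arrays lay above both wild type arrays, but they differed from each other by more than the wild type arrays did. The means were 114 ± 0.777 and 200 ± 32.4, a log2 change of 0.69 ± 0.16 (adjusted p = 0.0244, 95% interval 0.26 to 1.11). The adjusted p was 0.111 without wild type replicate 1, 0.117 without wild type replicate 2 and 0.0658 with no filter. The direction was the same in all 11 alternatives, with changes of 0.54 to 0.84.

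**Figure D3:**
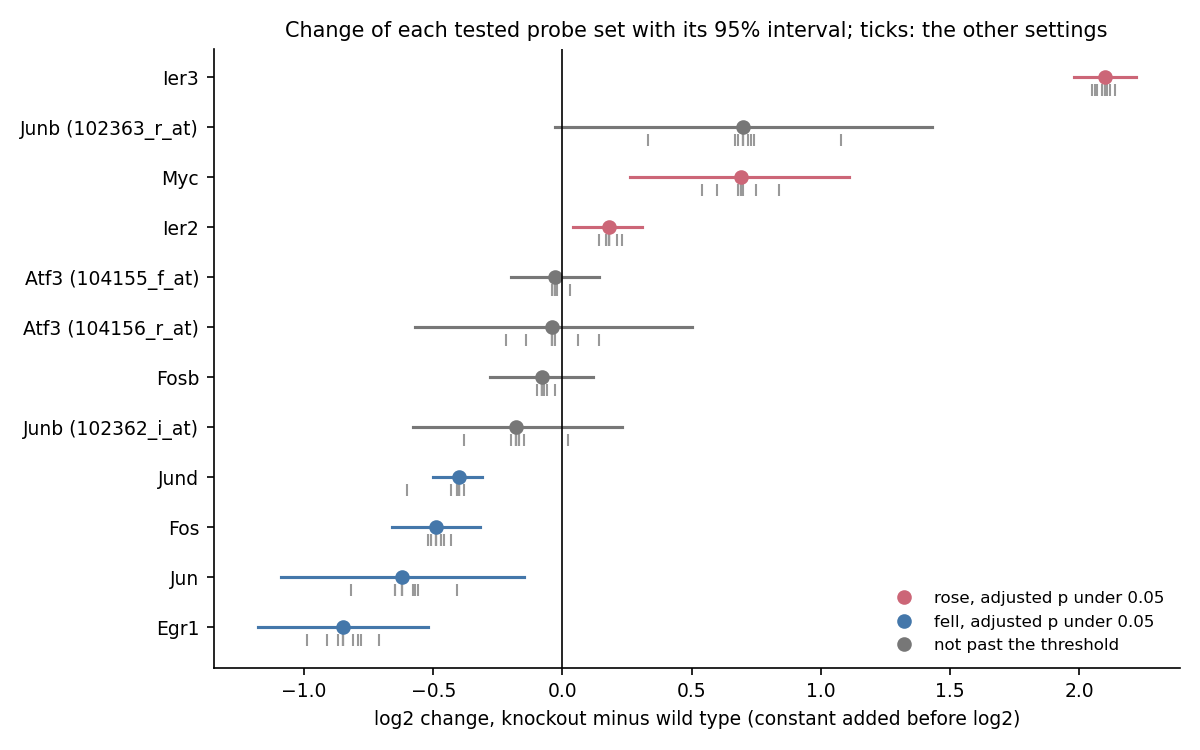
Log2 change (knockout minus wild type) of the 12 tested member probe sets on MG-U74A, with its 95% interval from limma, and below each line a grey tick for each alternative setting. Ier3 stands at 2.10, Egr1 at -0.85, and the intervals of Fosb, Junb and Atf3 include 0.

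Genes around the members were read from fixed lists, 1 probe set a gene, the brightest of those tested. By gene 22.7% rose and 30.2% fell on MG-U74A, and 9.60% rose and 9.60% fell on MG-U74B. Every call on MG-U74B named below rests on both wild type arrays, since none held with either left out. The calls of the AP-1 partners, other transcription factors, effectors, upstream kinases and Myc network rest on both knockout arrays as well. Read by the brightest probe sets, none of these held with either knockout array left out. Leaving out knockout replicate 1 also ended the calls of the feedback inhibitors and a fall of the Myc targets. Such a fit leaves 1 array in a genotype, so that a lost call does not show that a change was absent. With no variance trend 0 of the other transcription factors, the effectors, the upstream kinases and the Myc network passed on MG-U74B. With no filter 0 effectors rose there, and 0 genes of the Myc network and of the Myc targets fell.

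Among AP-1 and ATF partners, the factors that can pair with Fos and Jun or share their sites, 1 of 14 tested rose and 5 fell (7.14% and 35.7%) on MG-U74A, and the median change was -0.23. Atf5, a factor of the amino acid response, fell by 2.37 ± 0.09, from 1204 ± 10.1 to 213 ± 22.4 (adjusted p = 2.58e-04). Mafg, a small Maf protein, changed by -1.17 ± 0.13 on its brighter probe set, while its probe set on MG-U74B read 202 and 1.2 in wild type and 379 and 275 in knockout (2.18 ± 1.06, adjusted p = 0.219). Atf6, a sensor of endoplasmic reticulum stress, changed by -0.81 ± 0.13. On MG-U74B the brighter of its tested probe sets stood at 0.67 ± 0.26 (adjusted p = 0.146) and the other at -1.77. Batf3, a factor of dendritic cells and lymphocytes, rose by 0.36 ± 0.09, a call lost when either wild type replicate was left out; 3 falls of the list passed then. On MG-U74B 1 of 8 rose, Maf by 1.63 ± 0.21, and 0 fell (0 at an unadjusted p under 0.05 by limma). The other tested probe set of Maf there stood at 0.26.

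Other immediate early transcription factors rose more often than they fell, 9 of 20 against 3 on MG-U74A (45% and 15%), with a median of 0.32. Id3 and Id2, inhibitors of basic helix-loop-helix factors, rose by 1.18 ± 0.11 and 1.06 ± 0.04, and Irf1, an interferon-induced factor, by 1.11 ± 0.05, from 1053 ± 2.68 to 2302 ± 112. The falls were Hes1, a Notch target (-0.87 ± 0.09), Per1, a clock gene (-0.83 ± 0.14), and Cebpd (-0.22 ± 0.04). Nr4a1, 1 of the 9 and named after its values were seen, had means of 37.2 and 103 and passed the filter only through the knockout arrays. Egr2 was singled out after its values were seen, as the nearest relative of Egr1. It read 140 and 383 in wild type and 577 and 559 in knockout, a change of 1.19 ± 0.46 that did not pass (adjusted p = 0.0968). On MG-U74B 1 of 6 rose, Csrnp1 by 1.10 ± 0.13, and 1 fell, Klf9 (-0.59 ± 0.11). On MG-U74A 6 rises and 1 fall passed without wild type replicate 1, and 5 rises and 1 fall without wild type replicate 2.

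Other immediate early effectors, the secreted, signalling and RNA-binding products of the early response, rose in 14 of 24 cases and fell in 3 (58.3% and 12.5%), with a median of 0.80. Pim1, a survival kinase, read 2.80 and 35 in wild type and 908 and 1108 in knockout. It is 1 of the 14, but it passed the filter of 62.5 only through the knockout arrays, and the size of its change is set by the constant added and is not given. The chemokine gene Ccl7 rose by 2.04 ± 0.06, from 258 ± 12.9 to 1143 ± 7.26, and Ccl2 by 1.82 ± 0.05, from 1569 ± 19.8 to 5592 ± 309. The falls were the growth arrest genes Gadd45g (-1.32 ± 0.09) and Gadd45a (-1.17 ± 0.07), and Mcl1, a survival protein of the Bcl2 family (-0.36 ± 0.11). With 1 array left out 11 to 12 rises passed, with 2 falls without either wild type replicate and 5 without knockout replicate 2. Chemokines are made by macrophages too, whose 12 tested markers rose on the same arrays. All 14 on the array summed to 5606 to 5866 in wild type and 20057 to 20174 in knockout. The part of macrophages in the rises of Ccl7 and Ccl2 was not tested. On MG-U74B 1 of 2 tested rose, Btg1 by 0.70 ± 0.15, a call lost with no filter, with quantile normalization and with no variance trend. On MG-U74A Btg1 rose by 0.82 ± 0.06 (adjusted p = 0.00135).

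Feedback inhibitors, which end the early response, rose in 4 of 9 cases on MG-U74A (44.4%), and 0 fell by limma, with 1 fall at an unadjusted p under 0.05. Nfkbia, the inhibitor of the factor NF-kappaB, rose by 1.24 ± 0.05, from 711 ± 29.3 to 1707 ± 26.3. Tnfaip3, which acts on the same pathway, rose by 1.01 ± 0.19 and the phosphatase gene Dusp2 by 0.77 ± 0.07. With either wild type replicate left out 2 rises passed, and falls numbered 2 without knockout replicate 1 and 1 without knockout replicate 2. Nab2, which binds and represses Egr1, was listed below 0 on both wild type arrays of MG-U74B and read 331 and 267 in knockout. It passed the filter only through the knockout arrays, so that no size is given. On MG-U74A its probe set read 94.6 and 117 against 159 and 154, a change of 0.48 ± 0.15 (adjusted p = 0.0623). Spred1, an inhibitor of the Ras pathway, rose by 1.01 ± 0.19 on MG-U74B, where 2 of 10 rose and 0 fell by limma. At an unadjusted p under 0.05, 5 rose and 0 fell.

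**Figure D4:**
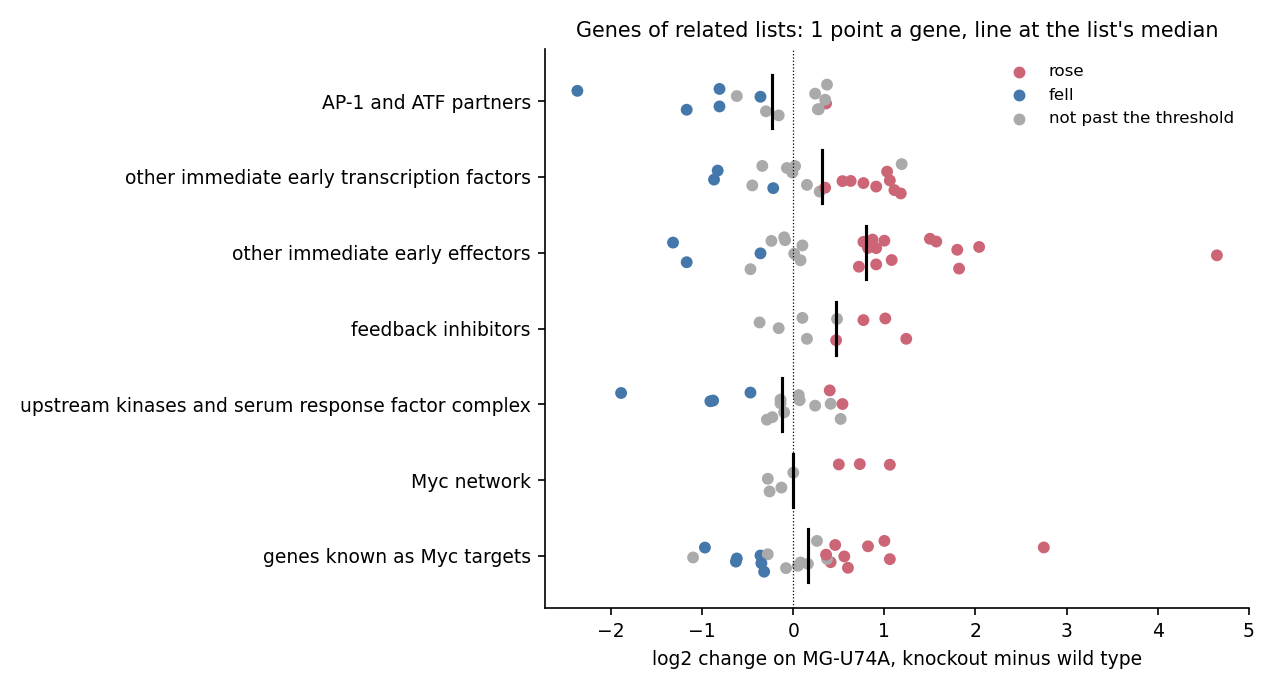
Log2 change (knockout minus wild type) on MG-U74A of the tested genes of 7 lists related to the members, with 1 point a gene and a line at each list's median. The effectors have the highest median, 0.80, and the AP-1 and ATF partners the lowest, -0.23.

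Of the upstream kinases and the serum response factor complex, which start the response, 2 of 16 rose and 4 fell on MG-U74A, and the median change was -0.12. Camk2b, a calcium-dependent kinase, fell by 1.89 ± 0.06, from 1099 ± 5.24 to 278 ± 12.3, the stress kinase gene Mapk14 changed by -0.91 ± 0.05 and Araf, whose knockout mean of 46 lay below the filter, by -0.88 ± 0.18. Prkaca, a catalytic subunit of protein kinase A, rose by 0.54 ± 0.08 and Map2k1, which activates the ERK kinases, by 0.40 ± 0.06. Without wild type replicate 1, 2 falls and 1 rise passed, and without wild type replicate 2, 2 falls and 0 rises. By the brightest probe sets on MG-U74B 1 of 10 rose and 0 fell (0 at an unadjusted p under 0.05). The rise was that of the ternary complex factor gene Elk4, by 0.68 ± 0.11, while on MG-U74A Elk4 stood at -0.23 ± 0.19. The count of 0 falls depends on these choices. On MG-U74B 1 gene fell with the probe set of lowest adjusted p for each gene, and 1 with the replicate block. Srf, the gene of serum response factor, stood at 0.42 ± 0.33 there (adjusted p = 0.405). Of its 2 other tested probe sets on MG-U74B 1 changed in the opposite direction.

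In the Myc network 3 of 7 rose on MG-U74A, and 0 fell by limma, with 1 fall at an unadjusted p under 0.05. Max, the obligate partner of Myc, rose by 0.73 ± 0.11, from 276 ± 38.8 to 473 ± 4.30, and Bin1 by 0.50 ± 0.08. The other is Mxd1, which competes with Myc for Max. It read 55.9 and 54.7 in wild type and 122 and 166 in knockout, and passed the filter of 62.5 only through the knockout arrays. With either wild type replicate left out 1 rise passed, and without knockout replicate 1 there was 1 fall. On MG-U74B Mlxip rose by 0.88 ± 0.15 and Fbxw7, which marks Myc protein for degradation, fell (-0.97 ± 0.19), of 5 tested.

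Genes known as Myc targets went both ways, with 9 rises and 6 falls of 23 on MG-U74A (39.1% and 26.1%) and a median of 0.16. Ldha, lactate dehydrogenase, rose by 2.75 ± 0.05, from 685 ± 31.2 to 4753 ± 7.17, and the nucleolar protein gene Ncl by 1.00 ± 0.03. Pa2g4 read 49.8 and 47.2 in wild type and 161 and 101 in knockout, and passed the filter of 62.5 only through the knockout arrays. Among the falls were Mybbp1a (-0.97 ± 0.21), Ccnd2, a D-type cyclin (-0.63 ± 0.12), and Cad, an enzyme of pyrimidine synthesis (-0.62 ± 0.15), whose probe set on MG-U74B stood at 0.66 ± 0.26 (adjusted p = 0.147). With either wild type replicate left out 1 fall passed. On MG-U74B 1 of 4 rose and 2 fell. Srm, spermidine synthase, was singled out after its values were seen, since its probe sets disagree: it fell by 0.32 ± 0.07 on MG-U74A and rose by 1.75 ± 0.13 on MG-U74B. The falls on MG-U74B were Shmt1 (-1.81 ± 0.18) and Tfrc (-1.09 ± 0.16), whose probe set on MG-U74A stood at 0.08 ± 0.04 (adjusted p = 0.164).

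The genes whose 4 arrays on MG-U74A lay nearest to a member, by Euclidean distance of log2 values less the wild type mean, are named as a description, since 4 arrays of 2 genotypes leave many genes alike. Fos was nearest to Rer1, Ero1a and Ergic2, at distances of 0.0217, 0.0268 and 0.0283 log2 units. Jun was nearest to Trim37, Pim3 and Kpna6 (0.0299, 0.0315 and 0.0343). Egr1 was nearest to Sfxn1, Krt18 and Fam91a1 (0.0730, 0.0741 and 0.0905). Myc was nearest to Nfya, Ndufa3 and Scin (0.0557, 0.0599 and 0.0644), and Ier2 to Med23, Lrp1 and Psg19 (0.0153, 0.0210 and 0.0313). The brighter Junb probe set was nearest to Trp53-ps, Pspc1 and Brap (0.0550, 0.0557 and 0.0847). No other member of the 10 appears among these genes.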

How the data were processed

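The deposited values are linear intensities, 1 for each probe set, which the authors had scaled so that the trimmed mean of an array was about 250.2 on MG-U74A and 250.1 on MG-U74B, as the values show. The labels' protocols name no software for this step. Between 18.4% and 26.7% of an array's values were below 0. Arrays were brought to a common trimmed mean, values below 0 were set to 0, a constant of 10% of that mean was added and log2 was taken. Probe sets with a mean under 62.5 and control probe sets were left out of the tests. Each array type was fitted alone with limma 3.58.1 in R 4.3.3 (lmFit, eBayes with a variance trend, two-sided, Benjamini-Hochberg over 7516 or 7861 probe sets), and the script was tested on simulated data. The smallest p of an exact permutation test at 2 against 2 is 0.333. The number of arrays limits the precision, and intensities are not compared between probe sets.

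The members and lists were chosen with earlier results of these data known. All member probe sets are given. From each list up to 3 genes that rose and 3 that fell most past the threshold are named for each array type, and for 6 members the 3 genes nearest in pattern. Names come from the array annotation, updated through a table of GRCm38.p6 by gene ID. Promoter windows of Fos, Fosb, Jun, Junb, Jund, Atf3 and Ier3 were used. The alternatives were other constants and filters, quantile normalization, no variance trend, the replicate number as a block and each array left out. The knocked-out gene is not reported here, its level was not analysed, and the genotypes rest on the labels.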

Additional observations from a re-analysis of the deposited data

How the results depend on the processing

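Ier3, Egr1 and Jund kept their direction and their side of the threshold under all 11 alternatives, while the calls of Fos, Jun, Ier2 and Myc each ended in at least 1. With no filter 1 member rose. With 1 array left out, 1 to 3 members rose and 2 to 4 fell, where the lone array was assumed to vary like the other genotype. The probe set of Junb at -0.18 ranged from -0.38 to 0.02 with 1 array left out, above 0 only without wild type replicate 2. The brighter tested probe set of Atf3 turned to 0.03 with quantile normalization, and the dimmer one to 0.14 without wild type replicate 1 and 0.06 without knockout replicate 2 (lowest -0.22), all far from the threshold. Over all probe sets of MG-U74A, the counts of 1796 that rose and 2178 that fell were 1182 to 1729 and 1082 to 2401 with 1 array left out. On MG-U74B the main counts were 675 and 697. They were 332 and 432 with no filter, 295 and 343 with no variance trend, and 0 to 139 and 0 to 399 with 1 array left out by limma, where 1008 to 1326 rose and 723 to 1413 fell at an unadjusted p under 0.05. The labels' replicate numbers were not shown to pair the arrays (correlation of same-numbered deviations 0.0241 on MG-U74A and 0.0316 on MG-U74B). With the replicate block 2 members rose and 4 fell, the adjusted p of Ier2 was 0.0966, 0 AP-1 and ATF partners rose on MG-U74A (the Batf3 call ended), 0 effectors rose on MG-U74B (the Btg1 call ended), and 1646 rose and 1982 fell on MG-U74A. Of 336 counts of the related lists under alternatives, 258 were within 1.5 times the main count, with counts of 0 that stayed 0 among them. A mean of 2 arrays limits what can be seen of small changes.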
